A study of Rattus norvegicus with 69 samples.

Results

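Seminiferous tubules dissected at stages XIII-XIV of the epithelial cycle were compared with tubules dissected at stage XII, the step just before them, in adult rat testis. The samples were chosen by their titles: 5 carried stage XIII-XIV and 5 stage XII, so that 10 of the 69 samples of the series entered the comparison. All of them were tubules of Sprague Dawley rats aged 55 to 60 days. Tubules were microdissected under transillumination, and each sample pooled 25 segments from each of 2 rats, so that 1 value averages every cell of those segments. RNA was measured on 1 Affymetrix array per sample. The series also holds the other 8 stage groups and isolated Sertoli cells, spermatogonia plus early spermatocytes, pachytene spermatocytes, round spermatids and whole testis, which are used below for the level of a gene elsewhere. The labels name no treatment or altered allele for any stage, and a stage rests on the dissection.

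Along a tubule the germ cells lie in fixed associations that follow each other in a cycle. At stage XII the most advanced spermatocytes are in late pachytene or diplotene, younger spermatocytes are entering pachytene, and the only spermatids are elongating ones. In stages XIII and XIV diplotene cells pass into both meiotic divisions, which end in new round spermatids, while the elongating spermatids go on condensing their chromatin and building the tail. Entry into a division rests on the kinase Cdk1 with its cyclin partners, and exit rests on the anaphase-promoting complex, a ubiquitin ligase that marks cyclins and securin for destruction. Sertoli cells, which nurse the germ cells, are present at every stage.

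Levels are given as array signal, brought to a common trimmed mean in the deposited values, and differences as log2 of XIII-XIV over XII. A difference was called when limma's adjusted p was under 0.05 and the change was at least 2-fold, after 5.11 was added to each signal. Median signals of the 10 arrays lay between 39.0 and 47.7. The ratio of 3′ to 5′ signal, a sign of RNA quality, was 0.931 to 1.29 for Gapdh at XIII-XIV and 0.897 to 1.29 at XII. For actin the ratio was 1.69 to 2.01 at XIII-XIV and 1.55 to 1.78 at XII, and its part in the results was not tested. Each array correlated with its own stage at a mean r of 0.928 to 0.947. Replicates 2 and 5 of XIII-XIV correlated marginally more with XII (0.9411 and 0.9409) than with their own stage (0.9399 and 0.9408). The separate samples may share rats or days, which the labels do not say, so that p-values measure the spread between samples. That spread was taken within stages over all 49 tubule samples of the 10 stage groups, not from the 10 samples compared alone.

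At XIII-XIV several cell division genes, among them Ccnb1, Ccna1, Plk1 and Foxm1, were higher than at XII. Some spermatid genes, such as Prss37, Hils1 and Cdyl, and the retinoid genes Rdh10 and Stra6 were lower. Other spermatid and retinoid genes, such as Zpbp2 and Aldh1a3, were higher. Ccnb1, Ccna1, Cdyl, Rdh10 and Stra6 also had other probe sets that were not called. Of 22258 probe sets tested, 208 were called, or 0.934% of them. Higher at XIII-XIV were 82 (0.368%), and lower were 126 (0.566%). At an adjusted p under 0.05 with no limit on size, 1657 passed (7.44%), of which 795 were higher and 862 lower. The called higher probe sets covered 64 genes and had a median log2 difference of 1.20, and the called lower ones covered 107 genes and had a median of -1.23, against -0.04 over all tested probe sets. The samples of the stages did not overlap for 55 of the 82 and for 93 of the 126, compared with 7.44% of all tested probe sets, a count of 1657 that equals the number passing the adjusted p by coincidence, since 1159 probe sets met both. Called differences were mostly between 2-fold and 4-fold: 1 higher probe set, which carries several gene symbols and so is not named, and 6 lower ones passed 4-fold. Both stage means were below the median of the table, 43.7, for 15 of the higher and 22 of the lower probe sets, where signal above background was not shown.

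**Figure D1:**
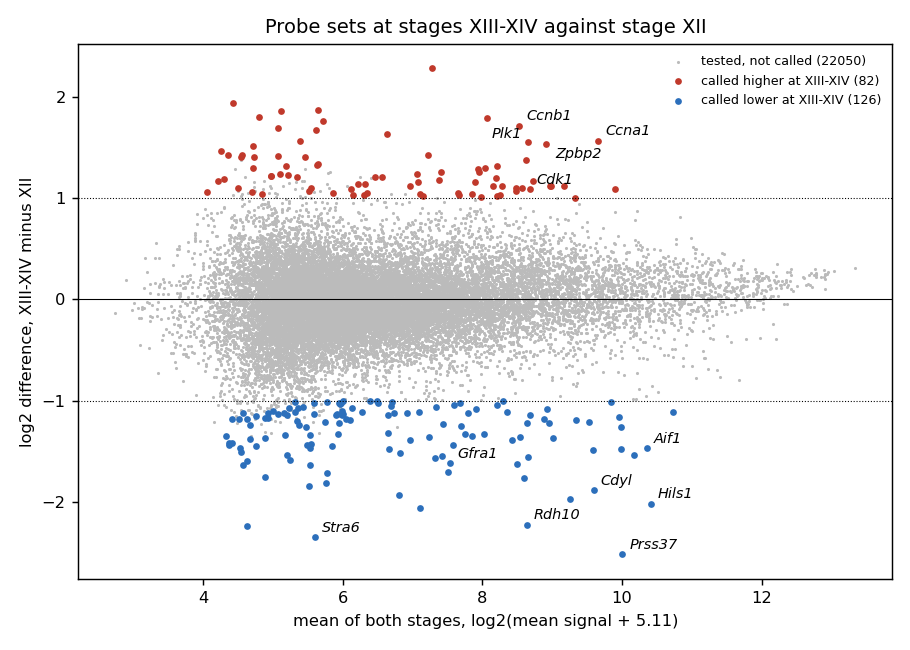
Log2 difference of XIII-XIV minus XII (vertical) against the mean of both stages' log2 signal (horizontal) for each of 22258 tested probe sets. Red points are the 82 called higher at XIII-XIV and blue points the 126 called lower, with 12 genes named. The bright called genes are mostly falls, while Ccnb1, Ccna1, Plk1, Zpbp2 and Cdk1 stand out above the line at 1.

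Part of the division kinases and cyclins rose. Of 20 tested members of a list of cyclins, kinases and G2-M regulators, 6 were called higher and 0 lower, where 0.467% of 11994 tested genes were called higher and 0.809% lower. At an adjusted p under 0.05 alone 11 members were higher and 2 lower, beside 5.4% of all genes higher and 5.57% lower. The median member differed by 0.55 on the log2 scale, against -0.04 over all tested genes. The lists were chosen with earlier results of these data known. Their counts beside these shares of all genes are thus a description, here and below. Tubules mix cells, among them dividing spermatocytes and, after the divisions, new round spermatids. A change in cell numbers cannot be told apart from a change in RNA per cell, here or in any result below.

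Ccnb1, cyclin B1, the partner that switches on Cdk1 for division, had signals of 810.4, 541, 594, 715 and 656 in the XIII-XIV samples, against 225, 204, 173, 176 and 211 in the XII samples. Every XIII-XIV sample lay far above every XII sample, and the mean was 663 ± 105 against 198 ± 22.8 (SD, n = 5 each). The difference was 1.71 (SE 0.12, adjusted p = 8.77e-15). A second Ccnb1 probe set differed by 0.29 and was not called, so that the probe sets of this gene disagree in size. Ccna1, cyclin A1, a germ cell cyclin that mouse spermatocytes need to enter the first meiotic division, had 1356, 1239, 1260.4, 1619 and 1405 at XIII-XIV and 332, 559.8, 577, 452 and 424 at XII. The groups stood apart, and the difference was 1.56 (SE 0.13, adjusted p = 4.74e-12), with 0.50 on its other probe set, which was not called. Plk1, polo-like kinase 1, which acts at entry into division and on the spindle, had 624, 646, 667, 731 and 707 at XIII-XIV and 165, 282, 300.4, 216 and 196 at XII. Its XIII-XIV samples were tightly grouped and its XII samples more spread, without overlap, and the difference was 1.55 (SE 0.20, adjusted p = 1.67e-07).

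Cdk1 itself, the kinase of the cyclin B complex, had 652, 581, 534, 581 and 591 at XIII-XIV and 209, 342, 306, 269.8 and 258 at XII. The groups did not overlap, and the difference of 1.09 (adjusted p = 1.64e-08) lay close to the 2-fold limit: without replicate 1 of XII, the lowest sample, it was 0.99 and not called. Aurkb, the kinase of the chromosomal passenger complex, had 313, 331, 312, 311 and 356 at XIII-XIV and 132, 168, 187, 149 and 148 at XII. These groups too stood apart by 1.03 (adjusted p = 3.4e-06), and without replicate 1 of XII the value was 0.98 and not called. Foxm1, a transcription factor of G2-M genes, had 286, 416, 410.4, 441 and 436 at XIII-XIV and 110.2, 233, 231, 143 and 111 at XII on its brighter probe set. It rose by 1.30 there and by 1.85 on the dimmer one, with no overlap on either.

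Among the members that missed the 2-fold limit, Aurka, the centrosomal Aurora kinase, averaged 919 ± 144 at XIII-XIV and 474 ± 28.8 at XII, a difference of 0.94 (adjusted p = 7.45e-05). Ccnb2, the second B-type cyclin, and Cdc25a, a phosphatase that activates cyclin-dependent kinases, were higher by 0.81 and 0.85 at adjusted p of 3.15e-05 and 2.43e-06. Birc5 and Cdca8, partners of Aurkb in the passenger complex, were higher by 0.63 and 0.46, with adjusted p of 0.0013 and 0.0237, and their partner Incenp differed by 0.23 (adjusted p = 0.171). Aurkc, the Aurora kinase of the germ line, was not among them: its signals were 890.4, 843, 811, 718 and 757 at XIII-XIV and 929, 870.0, 881, 939 and 933 at XII, which overlapped, with a difference of -0.18 (adjusted p = 0.504). Cks2, the small Cdk-binding protein that mouse germ cells need for the first meiotic anaphase, was lower by a log2 difference of -0.58 (adjusted p = 2.49e-05), and Cdk2 by -0.41 (adjusted p = 0.0323).

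**Figure D2:**
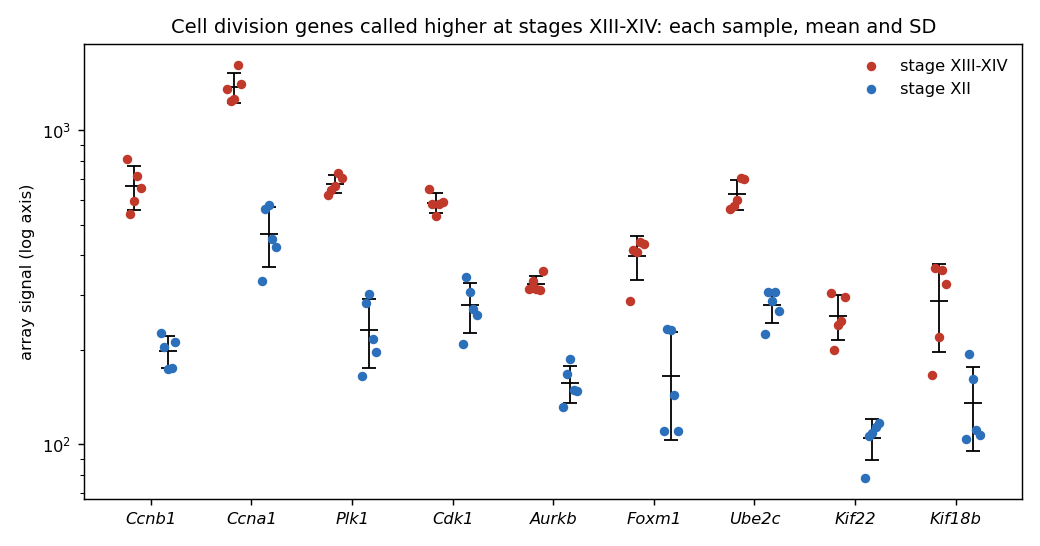
Array signal on a log axis of the 9 cell division genes called higher, in the 5 samples of stage XIII-XIV (red, left of each pair) and the 5 of stage XII (blue, right). Black marks are the mean and the SD of each stage. The stages are apart for every gene shown except Kif18b, whose XIII-XIV range of 166 to 365 overlaps the XII range of 104 to 194.

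Genes of the exit from division were described as a second list. Of 30 tested members of the anaphase, checkpoint and kinetochore list, 1 was called higher, 8 were higher and 1 lower at an adjusted p under 0.05, and the median was 0.14. Over all tested genes 0.467% were called higher. At that adjusted p 5.4% of all genes were higher and 5.57% lower, so the lower count did not exceed its share. The called member was Ube2c, the enzyme that loads ubiquitin for the anaphase-promoting complex, with 562, 575, 598, 703 and 700.4 at XIII-XIV and 225, 305, 286, 305 and 266 at XII. The groups stood apart by 1.16 (adjusted p = 2.31e-11). Subunits of the complex went both ways: Cdc27 was higher by 0.83 (adjusted p = 1.38e-06) and Cdc26 by 0.72 (adjusted p = 5.16e-06), while Cdc23 differed by -0.70 (adjusted p = 0.0296). The activator Fzr1 was higher by 0.62 (adjusted p = 0.00112), whereas the other activator, Cdc20, averaged 465 ± 118 at XIII-XIV and 484 ± 203 at XII, a difference of -0.01 (adjusted p = 0.991). Pttg1, securin, and Espl1, the separase it holds in check, were higher by 0.50 and 0.63 (adjusted p = 0.00609 and 0.00448). The spindle checkpoint genes Bub1, Bub1b and Ttk had differences of -0.16, -0.00 and 0.17, with adjusted p of 0.591, 0.997 and 0.782.

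In the spindle and cytokinesis list of 22 tested members, 2 were called higher and 0 lower, 6 were higher and 1 lower at an adjusted p under 0.05, and the median was 0.17. Of all tested genes 0.467% were called higher, and 5.4% were higher and 5.57% lower at that adjusted p. Kif22, a chromokinesin that moves chromosome arms, had 304, 199.7, 239.9, 247 and 295 at XIII-XIV and 78.0, 106, 109, 113 and 117 at XII. Every XIII-XIV sample was above every XII sample, by 1.25 (adjusted p = 6.58e-10). Kif18b, a kinesin of astral microtubule ends, had 166, 365, 219, 360.1 and 324 at XIII-XIV and 104, 194, 162, 111 and 107 at XII, which overlap. Its difference of 1.03 (adjusted p = 0.0418) was not called after leaving out any 1 of 6 of the 10 samples in turn, replicates 1, 4 and 5 of XII and 2, 4 and 5 of XIII-XIV, when it lay between 0.93 and 0.98. Kif23, the central spindle kinesin of cytokinesis, had 226, 192, 224, 227 and 256 at XIII-XIV and 103, 114, 98.8, 113 and 122 at XII on its brighter probe set, a difference just under the limit (adjusted p = 0.000292), and 1.33 on a dimmer one, which was called. Tubg1, gamma-tubulin, was the member lower at this threshold, by a log2 difference of -0.56 (adjusted p = 5.16e-06).

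The starts of the division genes that rose were read from RefSeq sequence on the rat build GRCr8, 250 bases before each start. Sequence was at hand for 6 of the 9 genes: Ccna1, Ccnb1, Cdk1, Kif18b, Kif22 and Plk1. The letters CCAAT, the box bound by the factor NF-Y in many cell cycle promoters, were found on 1 or other strand in 4 of the 6, compared with 34.3% of 27457 rat promoters of the same length. The letters TTTGAA, the core of the cell cycle homology element, stood in 2 of the 6, compared with 16.0% of all promoters. The 4 windows with CCAAT are shown because they let the spacing be seen. Capitals mark CCAAT, or ATTGG where it lies on the other strand, and TTTGAA, or TTCAAA on the other strand. They lie at chr2:33655226-33655475 on the minus strand for Ccnb1, chr20:19265043-19265292 on the plus strand for Cdk1, chr1:191080879-191081128 on the minus strand for Kif22 and chr1:186147408-186147657 on the plus strand for Plk1, each written along its gene's strand.
Ccnb1: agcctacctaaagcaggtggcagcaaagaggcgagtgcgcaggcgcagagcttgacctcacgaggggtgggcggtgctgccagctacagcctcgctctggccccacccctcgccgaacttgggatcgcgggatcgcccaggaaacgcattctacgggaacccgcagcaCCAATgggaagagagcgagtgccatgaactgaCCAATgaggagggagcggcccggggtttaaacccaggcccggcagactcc
Cdk1: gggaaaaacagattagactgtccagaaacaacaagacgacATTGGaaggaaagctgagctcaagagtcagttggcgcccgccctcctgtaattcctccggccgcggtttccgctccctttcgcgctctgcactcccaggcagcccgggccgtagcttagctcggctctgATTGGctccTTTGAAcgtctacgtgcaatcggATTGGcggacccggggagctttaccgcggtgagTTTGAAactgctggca
Kif22: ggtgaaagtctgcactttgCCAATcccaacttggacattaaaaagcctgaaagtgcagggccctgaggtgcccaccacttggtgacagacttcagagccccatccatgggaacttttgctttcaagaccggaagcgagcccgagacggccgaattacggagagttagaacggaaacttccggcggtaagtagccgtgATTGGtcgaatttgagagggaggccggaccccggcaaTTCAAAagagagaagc
Plk1: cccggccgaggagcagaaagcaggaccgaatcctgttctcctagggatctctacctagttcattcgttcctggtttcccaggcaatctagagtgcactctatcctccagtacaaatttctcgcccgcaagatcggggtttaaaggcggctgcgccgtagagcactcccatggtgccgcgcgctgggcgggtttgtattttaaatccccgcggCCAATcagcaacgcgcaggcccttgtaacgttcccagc
Cdk1 held 3 CCAAT boxes and 2 TTTGAA elements, Ccnb1 held 2 boxes, Kif22 held 2 boxes and 1 TTTGAA, and Plk1 held 1 box. None of these letters was found in the windows of Ccna1 and Kif18b. Over all genes called higher, 50 of 64 had a promoter and CCAAT stood in 28.0% of them, TTTGAA in 12.0% and the CRE palindrome TGACGTCA, bound by the spermatid activator CREM, in 4.0%. Over genes called lower, 87 of 107 had a promoter, and the shares were 32.2%, 13.8% and 2.3%. In all promoters the palindrome stood in 1.7%. The matches are letters in these windows and were not tested for binding.

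Few genes of meiotic chromosome structure and recombination passed the test, and those that did were lower. Of 17 tested members of the synaptonemal complex, cohesin and recombination list, 0 were called higher and 1 lower, 0 were higher and 3 lower at an adjusted p under 0.05 by limma, beside 5.4% of all genes higher and 5.57% lower, and the median was -0.16. Sycp3, the axial element protein of meiotic chromosomes, averaged 3188 ± 388 at XIII-XIV and 2978 ± 213 at XII, a difference of 0.09 (adjusted p = 0.817). Sycp2, its partner, and H2ax, the histone that marks breaks and the sex body, were lower, by log2 differences of -0.43 and -0.52 (adjusted p = 0.0187 and 0.00416). Mlh3, a crossover protein of the mismatch repair family, had 8.91, 53.3, 36.7, 48.98 and 52.1 at XIII-XIV and 85.0, 111, 77.8, 84.9 and 43.0 at XII, with 1 XII sample inside the XIII-XIV range. It was called at -1.03, but without replicate 1 of XIII-XIV, its lowest sample, the value was -0.65, without replicates 1, 2 or 4 of XII it was -0.905 to -0.998, none of which was called, and its other probe set differed by 0.02.

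Of 20 tested members of the pachytene and diplotene list, 0 were called in either direction by limma, and the median was 0.07. At an adjusted p under 0.05, 1 was higher and 3 lower, beside 5.4% of all genes higher and 5.57% lower. Hspa2, the chaperone that spermatocytes need to leave prophase, averaged 4496 ± 671 at XIII-XIV and 3733 ± 272 at XII, a difference of 0.26 (adjusted p = 0.193). Lower at this threshold were Tdrd1 and Piwil2, both of the pathway of PIWI-bound small RNAs, by log2 differences of -0.55 and -0.59 (adjusted p = 4.15e-06 and 0.000582). Cstf2t, a testis form of a polyadenylation factor, differed by -0.34 (adjusted p = 0.0219). Adam2, a subunit of the sperm surface protein fertilin, was higher by 0.27 (adjusted p = 0.00384).

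Spermatid genes that passed went both ways. In the acrosome and round spermatid list of 16 tested members, 1 was called higher and 0 lower, and the median was 0.22. At an adjusted p under 0.05 by limma 3 were higher and 1 lower, beside 5.4% of all genes higher and 5.57% lower. The lower count is near its share. Zpbp2, an acrosomal protein that binds the egg coat, had 859.9, 802, 896, 713 and 786 at XIII-XIV and 237, 354, 297, 229.6 and 279.6 at XII. The samples stood far apart, by 1.53 (SE 0.20, adjusted p = 3.33e-07), and its other probe set differed by 0.62 and was not called. Acrbp, which binds proacrosin, was higher by 0.36 (adjusted p = 0.000202). Spaca3, an acrosomal lysozyme-like protein, averaged 102 ± 22.4 at XIII-XIV and 193 ± 36.8 at XII and was lower by a log2 difference of -0.89 (adjusted p = 0.00054). Acrv1 and Spam1, acrosomal proteins that averaged 1545 and 1771 in isolated round spermatids, averaged 74.0 and 43.0 at XIII-XIV and 78.5 and 21.2 at XII, and did not pass the test.

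The spermatid linker histone fell, while the basic proteins that pack sperm chromatin did not pass the test. Of 7 tested members of the elongating spermatid chromatin list, 0 were higher and 1 lower by either rule. Over all tested genes 0.467% were called higher and 0.809% lower. At an adjusted p under 0.05 alone 5.4% of all genes were higher and 5.57% lower. Tnp1 and Tnp2, the transition proteins, differed by 0.28 and 0.10 (adjusted p = 0.646 and 0.918), and the protamines Prm1 and Prm2 by 0.31 and 0.08 (adjusted p = 0.602 and 0.913). Under quantile normalization between arrays Tnp1, Tnp2 and Prm2 took the opposite sign and Prm1 was at 0, so that no direction is given for them, nor for the list's median of 0.08. Hils1, the linker histone of elongating spermatids, had 431, 342, 326, 1131 and 1393 at XIII-XIV and 2258, 1798, 1764, 3304 and 3589 at XII. Even the highest XIII-XIV sample was below the lowest XII sample, and replicates 4 and 5 were the highest of both stages. The fall was -2.01 on the log2 scale (SE 0.32, adjusted p = 1e-05), or 4.04-fold.

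In the flagellum list, 25 members were tested, 1 was called higher and 2 lower, 4 were higher and 5 lower at an adjusted p under 0.05, and the median was 0.14, or about 0 under quantile normalization. Of all tested genes 5.4% were higher and 5.57% lower at that adjusted p. Tektins, filament proteins of flagellar microtubules, went both ways. Tekt4 had 1028, 882, 851, 873 and 865 at XIII-XIV and 411, 496, 512, 418 and 401 at XII, which stood apart, and its difference of 1.004 (adjusted p = 2.33e-10) sat on the 2-fold limit: without replicate 1, 4 or 5 of XII or replicate 1 of XIII-XIV it was 0.95 to 0.98 and not called. Tekt5 had 3.87, 23.2, 23.7, 41.3 and 28.7 at XIII-XIV and 48.2, 65.7, 52.2, 88.8 and 85.9 at XII, also without overlap, and fell by 1.46 on the log2 scale (adjusted p = 0.000194). Tekt1 and Tekt3 were higher by 0.45 and 0.61 (adjusted p = 0.00318 and 5.68e-08), and Tekt2 differed by 0.19 (adjusted p = 0.38). Cimap1a, listed under its older name Odf3 as an outer dense fibre protein, had 80.9, 52.9, 67.0, 129 and 114 at XIII-XIV and 236, 195, 209, 374 and 324 at XII. It fell by 1.56 with no overlap (adjusted p = 8.9e-07). Akap3, of the fibrous sheath, and Tssk2, a spermatid kinase, were lower by log2 differences of -0.76 and -0.69 (adjusted p = 0.000171 and 4.31e-07), whereas Akap4 and Odf1, both abundant tail proteins, differed by 0.14 and 0.25 (adjusted p = 0.638 and 0.629).

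**Figure D3:**
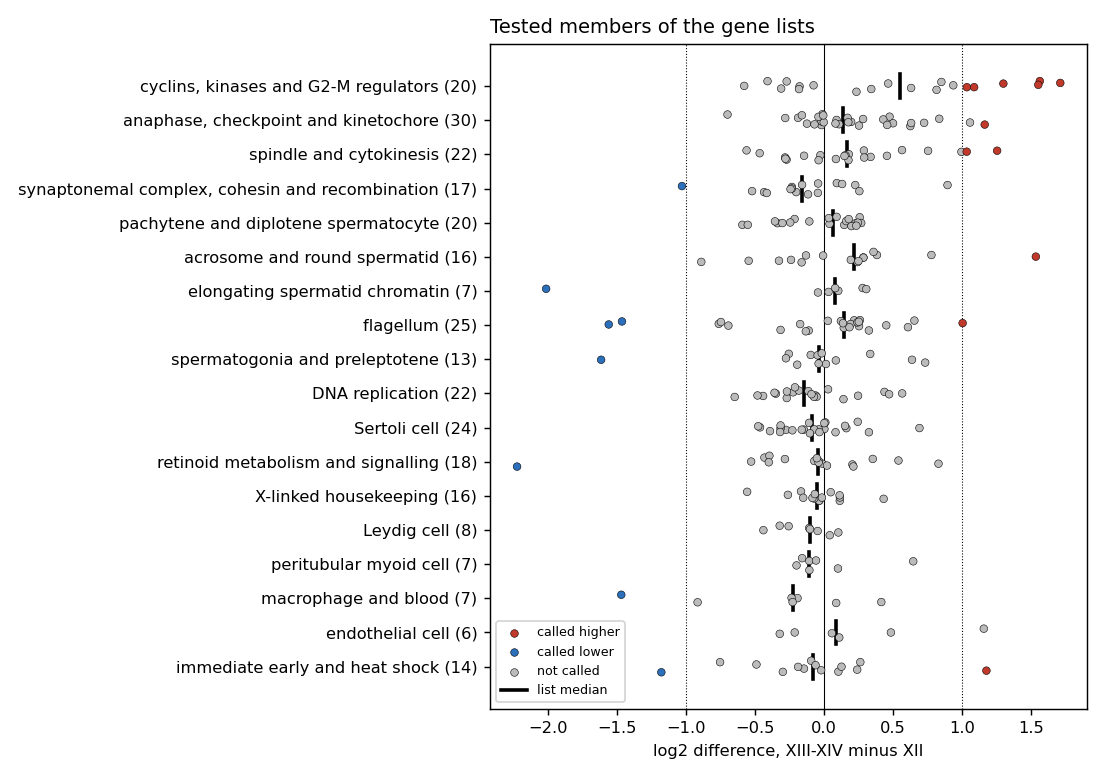
Log2 difference of XIII-XIV minus XII (horizontal) for every tested member of 18 gene lists (rows, number tested in brackets). Red points were called higher and blue points lower, grey points were not called, and the black bar is the list's median. The cyclin and kinase list has its median at 0.55 and 6 called members, while the medians of the other lists lie between -0.23 and 0.22.

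The retinoid genes Rdh10 and Stra6 were among the largest falls. Rdh10, the dehydrogenase that turns retinol into retinal, had 131, 149, 134, 238 and 251 at XIII-XIV and 835, 695, 645, 1074 and 971 at XII. The highest XIII-XIV sample was far below the lowest XII sample, and the fall was -2.23 on the log2 scale (SE 0.17, adjusted p = 1.75e-13), or 4.68-fold. A second Rdh10 probe set differed by -0.06. Stra6, the cell surface receptor that takes up retinol from its binding protein, had 7.91, 19.2, 11.4, 7.996 and 42.8 at XIII-XIV and 93.1, 88.9, 95.8, 107 and 101 at XII on the probe set with the largest change. The groups stood apart by -2.34 (SE 0.35, adjusted p = 3.88e-06). Of its other 4 probe sets, 2 were called lower, at -1.81 and -1.02, and 2 were not called, at -0.52 and -0.43, the last being the brightest.

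Of 18 tested members of the retinoid list, with 1 probe set for each gene, 0 were called higher and 1 lower, 2 were higher and 1 lower at an adjusted p under 0.05, and the median was -0.05. Of all tested genes 5.4% were higher and 5.57% lower at that adjusted p. Rdh11, which reduces retinal, and Aldh1a3, which makes retinoic acid, were higher by 0.54 and 0.83 (adjusted p = 0.000223 and 0.00136). Aldh1a3 averaged 97.7 ± 8.52 at XIII-XIV and 54.0 ± 13.9 at XII. The other enzymes of retinoic acid synthesis, Aldh1a1 and Aldh1a2, differed by 0.35 and -0.06 (adjusted p = 0.121 and 0.86). Cyp26a1, which degrades retinoic acid, had 43.5, 62.5, 52.7, 55.8 and 39.4 at XIII-XIV and 75.2, 69.0, 76.1, 67.6 and 86.5 at XII, which do not overlap, but its difference of -0.53 missed the threshold (adjusted p = 0.0891). Cyp26b1 differed by -0.01 (adjusted p = 0.987).

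Sertoli cell markers passed the test about as often as other genes. Of 24 tested, 0 were called in either direction by limma, 2 were higher and 1 lower at an adjusted p under 0.05, near the 5.4% higher and 5.57% lower of all genes, and the median was -0.09. Cst9l and Aard, both strong in isolated Sertoli cells, were higher by 0.69 and 0.32 (adjusted p = 4.63e-06 and 0.00162). Ctsl, cathepsin L, had 78.3, 67.3, 70.2, 69.0 and 68.8 at XIII-XIV and 91.6, 107, 85.1, 103 and 113 at XII and was lower by a log2 difference of -0.46 (adjusted p = 0.0179). Cst12, a cystatin, averaged 869 ± 76.7 at XIII-XIV and 737 ± 104 at XII, a difference of 0.24 (adjusted p = 0.424). Prnd, the doppel protein, was near the floor of the arrays, with 2.85 at XIII-XIV and 5.78 at XII, compared with 2567 in isolated Sertoli cells, and its difference of -0.48 did not pass (adjusted p = 0.594).

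Among 13 tested spermatogonial and preleptotene genes, 0 were higher and 1 lower by either rule, and the median was -0.04. Over all tested genes 0.467% were called higher and 0.809% lower. The lower member was Gfra1, the receptor for Sertoli cell GDNF on undifferentiated spermatogonia. It had 129, 109.8, 92.7, 103 and 65.5 at XIII-XIV and 289.6, 280.3, 242, 548 and 265 at XII. The groups did not overlap, 1 XII sample was well above the rest, and the fall was -1.62 on the log2 scale (SE 0.25, adjusted p = 8.5e-06); a second Gfra1 probe set differed by 0.01. No other member passed: its co-receptor Ret averaged 11.9 at XIII-XIV and 11.5 at XII, both near the floor, Etv5 differed by -0.28 and Id4 by -0.19 (adjusted p = 0.473 and 0.33). In isolated cells the Gfra1 signal averaged 158 ± 76.3 in round spermatids and 58.2 ± 7.81 in spermatogonia plus early spermatocytes. Of 22 tested DNA replication genes, 0 were called by limma, 0 were higher and 1, Lig1, the replicative DNA ligase, was lower at an adjusted p under 0.05 (-0.48, adjusted p = 0.0448), and the median was -0.15. Of 16 tested X-linked housekeeping genes, 0 were called by limma, 0 were higher and 1, Hprt1, a purine salvage enzyme, was lower at that threshold (-0.56, adjusted p = 0.0429), and the median was -0.05. Over all tested genes 5.57% were lower at that threshold, so 1 lower member of 13, of 22 or of 16 is near that share.

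Markers of cells outside the seminiferous epithelium were compared as well. Of 8 Leydig cell, 7 peritubular myoid and 6 endothelial markers tested, 0 were called by limma, and 1, the Leydig cell electron carrier Fdx1, passed an adjusted p under 0.05 at -0.32 (adjusted p = 0.0202). The medians were -0.11, -0.11 and 0.08. Beside these counts and those of the next list, 0.467% of all tested genes were called higher and 0.809% lower. At an adjusted p under 0.05 alone 5.4% of all genes were higher and 5.57% lower. In the macrophage and blood list, 1 of 7 tested members was called lower: Aif1, known as a macrophage marker, had 507, 957, 861, 771 and 858 at XIII-XIV and 2109, 2223, 1917, 2244 and 2284 at XII. The samples stood apart by -1.47 (adjusted p = 6.19e-07), and a second probe set differed by -0.19. Cd68, Cd163, Ptprc, C1qa and C1qb, the defining macrophage, leukocyte and complement genes of the list, were below the filter on low signal. The list's summed signal was 1243 to 1633 at XIII-XIV and 2544 to 2908 at XII. Without Aif1 alone the remaining 11 measured members summed to 647.8 to 736.5 at XIII-XIV and 543 to 627 at XII, higher at XIII-XIV with no overlap. Without Aif1 and the erythroid enzyme Alas2 the remaining 10 measured members summed to 193.6 to 317 at XIII-XIV and 224.5 to 284.9 at XII, which overlap, and Aif1 averaged 1843 in isolated round spermatids. The macrophage receptors Csf1r and Cd14 differed by -0.19 and -0.92 (adjusted p = 0.742 and 0.0925).

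In the immediate early and heat shock list of 14 tested members, which respond to handling of tissue, 1 was called in each direction. Of all tested genes 0.467% were called higher and 0.809% lower. Hspb1, a small heat shock protein, had 199, 295, 289, 190.4 and 239 at XIII-XIV and 69.2, 147, 123, 95.3 and 95.6 at XII and rose by 1.18 (adjusted p = 0.00227). Gadd45b, a stress-induced gene, averaged 11.1 ± 2.60 at XIII-XIV and 32.7 ± 11.4 at XII; its difference of -1.18 (adjusted p = 0.043) was not called after leaving out any 1 of 9 of the 10 samples in turn, replicates 1, 2, 3 and 5 of XII and each of XIII-XIV, when it lay between -1.06 and -1.23. The early genes Fos, Jun and Egr1 had differences of -0.30, -0.09 and -0.49 (adjusted p = 0.612, 0.877 and 0.0899).

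The strongest fall on any probe set belonged to Prss37, a serine protease homologue that mouse sperm need to reach and bind the egg. Its signal was 231, 348, 348, 608 and 637 at XIII-XIV and 2193, 2141, 1822, 2898 and 2836 at XII. No sample overlapped, the fall was -2.52 (SE 0.31, adjusted p = 6.19e-08), or 5.72-fold, and its other probe set was also called, at -1.42. Cdyl, a chromodomain protein of spermatid chromatin, had 279, 371, 403, 487 and 457 at XIII-XIV and 1573, 1258, 1285, 1647 and 1585 at XII. The groups were far apart, at -1.88 (SE 0.16, adjusted p = 6.25e-12), although 2 other Cdyl probe sets differed by -0.20 and 0.04. Adam6, a testis ADAM protein, had 122, 171, 154, 278 and 325 at XIII-XIV and 689, 521, 521, 946 and 808 at XII, again without overlap, and fell by 1.76 (adjusted p = 7.81e-09).

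Slc17a2, of a phosphate transporter family, had 86.8, 103, 105, 81.0 and 101 at XIII-XIV and 345, 280.1, 295, 336 and 358 at XII, which were tight and apart, by -1.71 (adjusted p = 7.71e-06). Fhdc1, a formin, had 42.7, 55.9, 42.8, 83.6 and 93.4 at XIII-XIV and 189, 313, 295, 281 and 282 at XII and fell by 2.06 (adjusted p = 3.52e-11). Misfal had 304, 182, 222, 496 and 344 at XIII-XIV and 1029.7, 881, 958, 1628 and 1457 at XII and fell by 1.97 (adjusted p = 6.58e-10). Both of these genes had XIII-XIV samples below every XII sample. Srcin1, an inhibitor of Src kinase, averaged 56.3 ± 30.1 at XIII-XIV and 200.3 ± 48.1 at XII and fell by 1.93 (adjusted p = 4.34e-06), with 0.24 on its other probe set.

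Other large falls were of dim genes. St8sia2, which makes polysialic acid, had 3.91, 2.81, 18.4, 3.37 and 4.81 at XIII-XIV and 52.2, 25.6, 50.3, 51.6 and 54.5 at XII, a difference of -2.24 (adjusted p = 4.57e-05). The stages did not overlap, and 1 sample of each lay apart from the rest. P2rx2, an ATP-gated channel, averaged 26.5 ± 14.4 at XIII-XIV and 90.3 ± 22.7 at XII, at -1.71 (adjusted p = 0.000582), and its other probe sets differed by -0.56 and -0.57. Mdn1, an ATPase of ribosome assembly, had 7.06, 5.93, 97.5, 7.29 and 7.54 at XIII-XIV and 80.4, 35.8, 81.2, 61.7 and 59.1 at XII, where 1 XIII-XIV sample was the highest of all 10. Its difference of -1.85 (adjusted p = 0.0463) was not called after leaving out any 1 of 8 of the 10 samples, namely all but replicate 2 of XII and replicate 3 of XIII-XIV, when it lay between -1.66 and -1.86. Gstt2, a glutathione transferase, averaged 22.2 ± 20.8 at XIII-XIV and 73.4 ± 36.2 at XII with overlap, and its difference of -1.64 (adjusted p = 0.0471) was likewise not called after leaving out any 1 of 8 samples, namely all but replicate 4 of XII and replicate 1 of XIII-XIV, when it lay between -1.43 and -1.72.

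On the rising side, C3h11orf91, an open reading frame with no assigned role here, had 676, 425, 427, 511 and 408 at XIII-XIV and 173, 168, 172, 108 and 84.2 at XII. The samples stood apart by 1.79 (adjusted p = 9.46e-06). Pierce1, a protein of ciliary microtubules, had 149, 52.7, 69.9, 97.5 and 69.6 at XIII-XIV and 30.0, 11.4, 9.38, 46.6 and 13.0 at XII, and rose by 1.87 (adjusted p = 9.38e-06) and by 1.22 on its other probe set. Loxl1, an enzyme of elastic fibres, had 177, 149, 173, 185 and 143 at XIII-XIV and 41.7, 71.0, 31.1, 81.1 and 39.9 at XII and rose by 1.63 (adjusted p = 0.0037). On the probe sets with signals given, every XIII-XIV sample was above every XII sample. The other Pierce1 probe set had overlapping samples.

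The remaining genes among the largest rises were dim, with XII means under the median of the table. Shc3, a signalling adaptor, averaged 62.1 ± 43.7 at XIII-XIV and 11.8 ± 1.31 at XII. Tagap averaged 37.8 ± 7.93 at XIII-XIV and 10.8 ± 7.34 at XII. Fam78a averaged 26.1 ± 8.36 at XIII-XIV and 6.65 ± 5.48 at XII, and none of these genes had overlapping samples. Their differences were 1.69, 1.52 and 1.46 (adjusted p = 0.00053, 0.00253 and 0.00724). Chga, chromogranin A of secretory granules, and Itih3, a hyaluronan-binding serum protein, rose by 1.80 and 1.76 (adjusted p = 0.00787 and 0.000223) with overlapping samples. Pygl, liver glycogen phosphorylase, had 48.3, 33.2, 28.8, 16.8 and 44.5 at XIII-XIV and 9.13, 7.11, 10.8, 9.58 and 8.03 at XII and a difference of 1.43 (adjusted p = 0.0296), which was not called after leaving out any 1 of 7 samples, namely replicates 1, 2, 4 and 5 of XII and 1, 2 and 5 of XIII-XIV, when it lay between 1.30 and 1.45.

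The neighbouring steps of the cycle put these values in place; they share the XII or the XIII-XIV samples with the comparison above, so each is given for itself. Ccnb1 averaged 133 ± 36.1 at IX-XI, 198 ± 22.8 at XII, 663 ± 105 at XIII-XIV and 1137 ± 170.5 at stage I. Its step differences on the log2 scale were 0.59 from IX-XI to XII and 0.77 from XIII-XIV to I (adjusted p = 0.000428 and 3.65e-06). Cdk1, in contrast, averaged 184 ± 21.3 at IX-XI, 277 ± 50.3 at XII, 588 ± 42.1 at XIII-XIV and 549 ± 66.0 at I, with -0.10 from XIII-XIV to I (adjusted p = 0.781). Zpbp2 averaged 102 ± 35.6 at IX-XI, 279 ± 50.5 at XII, 811 ± 70.6 at XIII-XIV and 760.0 ± 177 at I, again with no detectable difference in the last step (-0.12, adjusted p = 0.86). For Cdk1 and Zpbp2 the XIII-XIV mean was the highest of the 10 stages.

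Among the genes that fell, some also fell in the step before XII and others did not pass it. Rdh10 averaged 1789.6 ± 94.9 at IX-XI, 844 ± 181 at XII, 180.4 ± 59.0 at XIII-XIV and 86.5 ± 18.4 at I, and the steps on either side were -1.10 and -0.99 (adjusted p = 5.41e-06 and 3.41e-05). Hils1 averaged 7916 ± 2728 at IX-XI, 2542 ± 854 at XII, 725 ± 501 at XIII-XIV and 806 ± 467 at I, with -1.63 before and 0.19 after (adjusted p = 0.000272 and 0.853). Stra6 averaged 129 ± 17.03 at IX-XI, 97.2 ± 7.17 at XII, 17.9 ± 14.7 at XIII-XIV and 15.8 ± 12.1 at I; neither neighbouring step passed (-0.38 and -0.13, adjusted p = 0.606 and 0.92). Fhdc1 averaged 277 ± 60.1 at IX-XI, 272 ± 48.2 at XII, 63.7 ± 23.5 at XIII-XIV and 58.3 ± 11.3 at I, with steps of -0.02 and -0.07 that did not pass either (adjusted p = 0.973 and 0.92). Whether the step at XIII-XIV was larger than its neighbours was not tested. The titles of the group before XII give IX-XI while its source names give IX-XII, so that it may hold stage XII tubules.

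**Figure D4:**
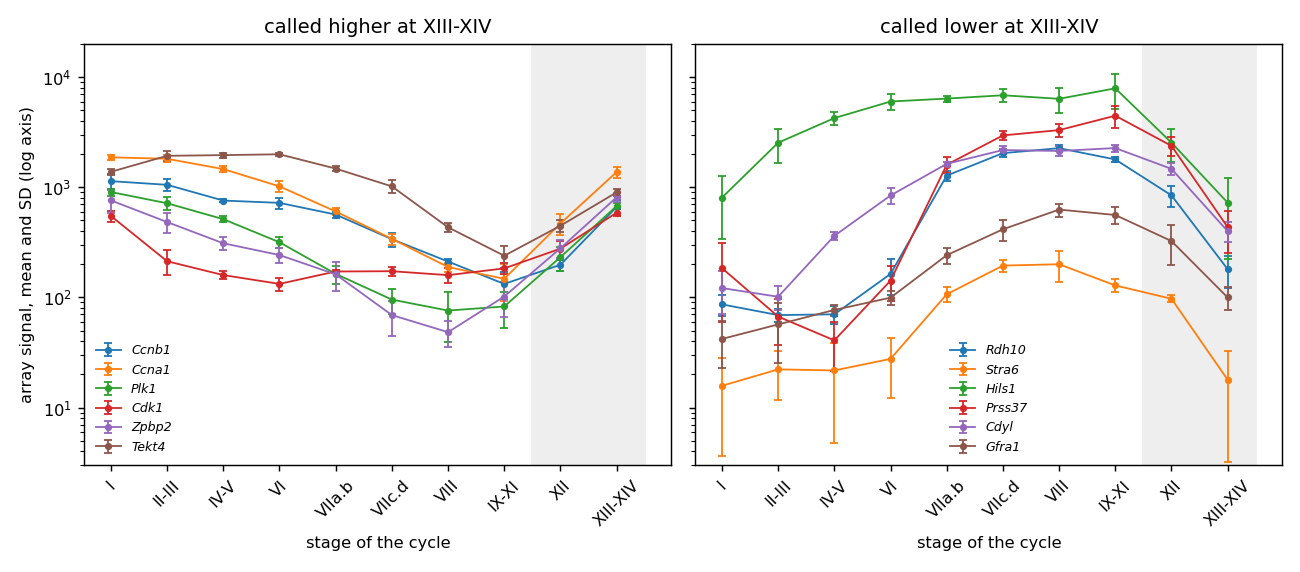
Array signal on a log axis (mean and SD of 5 samples, 4 at IV-V) over the 10 stage groups in cycle order, for 6 genes called higher (left) and 6 called lower (right) at XIII-XIV; the lower end of a bar below 3 is not drawn. The grey band marks XII and XIII-XIV. Ccnb1 and Ccna1 are highest at stage I and Cdk1 and Zpbp2 at XIII-XIV, and the falling genes are highest at VIII or IX-XI.

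Over the whole cycle, 39 of the 82 probe sets called higher had their highest stage mean at I, 11 at XIII-XIV, 10 at II-III and 8 each at IV-V and VI. Of the 126 called lower, 38 were highest at VIII, 35 at IX-XI, 25 at VIIc.d and 11 at VI, and 5 at XII itself. Of all tested probe sets, 10.1% were highest at I, 9.80% at II-III, 8.48% at IV-V, 9.56% at VI and 11.0% at VIIc.d. A further 11.9% were highest at VIII, 14.96% at IX-XI, 7.15% at XII and 9.11% at XIII-XIV. The comparison itself bears on which stage can be highest, so these counts are a description.

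The isolated cells gave levels that the comparison did not use. Round spermatids had the highest mean of the 4 isolated groups for 57 of the 82 probe sets called higher (69.5%) and for 70 of the 126 called lower (55.6%), compared with 28.1% of all tested probe sets. Pachytene spermatocytes were highest for 7 of the 82 (8.54%) and 12 of the 126 (9.52%), against 21.8% of all tested. Sertoli cells were highest for 10 (12.2%) and 24 (19.0%), against 20.2%, and spermatogonia plus early spermatocytes for 8 (9.76%) and 20 (15.9%), against 29.9%. No isolated sample held dividing spermatocytes or elongating spermatids as such, so that their part in these genes was not tested.

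**Figure D5:**
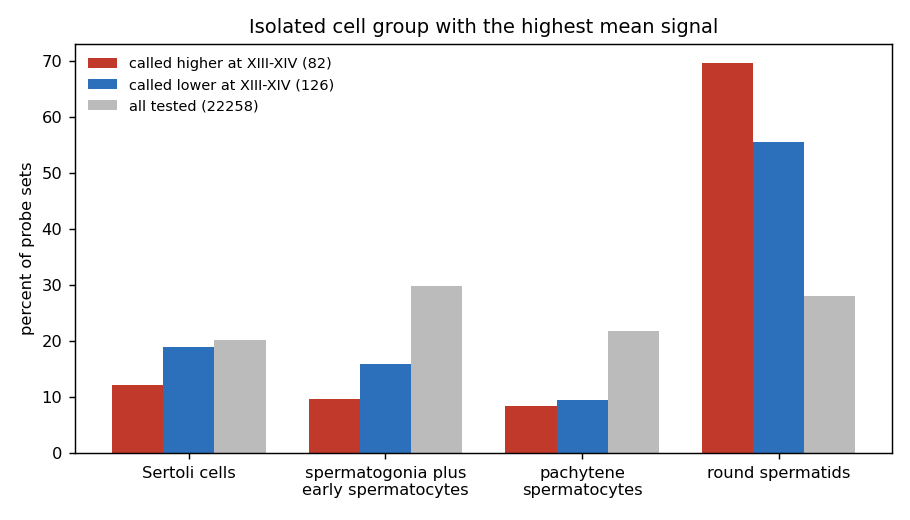
Percent of probe sets (vertical) whose mean signal was highest in each of 4 isolated cell groups (horizontal), for the 82 called higher at XIII-XIV (red), the 126 called lower (blue) and all 22258 tested (grey). Round spermatids hold 69.5% of the higher and 55.6% of the lower probe sets, against 28.1% of all tested.

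By gene, Ccnb1 averaged 1061 ± 29.6 in round spermatids (n = 4), 352 ± 39.7 in pachytene spermatocytes (n = 4) and 194 ± 13.1 in spermatogonia plus early spermatocytes (n = 3). Ccna1, Plk1, Aurkb, Foxm1, Ube2c and Kif18b were also highest in round spermatids. Ccna1 averaged 1599.5 ± 60.5 there, against 770.1 ± 109 in pachytene spermatocytes. Aurkb averaged 375 ± 29.9 and 314 ± 64.2, which overlap within their SDs. Kif22 was highest in spermatogonia plus early spermatocytes, at 224 ± 20.2, against 182 ± 9.09 in round spermatids. Cdk1 was instead highest in pachytene spermatocytes, at 473 ± 55.3, against 216 ± 17.8 in round spermatids, and Aurkc was at 999.95 ± 115 in pachytene spermatocytes and 282 ± 21.3 in round spermatids. Zpbp2 was at 788 ± 75.0 in round spermatids and 660.1 ± 169 in pachytene spermatocytes, which overlap within their SDs, and at 4.63 ± 0.846 in spermatogonia plus early spermatocytes. Stra6 was highest in Sertoli cells, at 248 ± 39.9, and P2rx2 likewise at 453 ± 85.3, against 13.0 ± 6.92 and 5.21 ± 0.782 in round spermatids. Rdh10 was highest in round spermatids, at 706 ± 81.4, and averaged 240.1 ± 42.0 in Sertoli cells. The purity of the isolated groups was not tested. Sycp3 averaged 1818 ± 384 in the Sertoli cell samples and 2955 ± 444 in the pachytene samples, while Ccna1 averaged 30.4 ± 17.6 in the Sertoli cell samples and 770.1 ± 109 in the pachytene samples.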

How the data were processed

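RNA from 69 samples was measured on 1 Affymetrix array each. Per the labels, cRNA was made from 6 µg of total RNA, and the submitters' processing notes name MAS5. The deposited values are 1 signal intensity per probe set and array on a linear scale, as found in the values themselves brought to one scale by the authors: the mean without 2% of probe sets at each end was 100 in every array. Genome build and detection calls: not given in the sources used here.

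From the intensities, 57 control probe sets were removed and 31042 used, of which 20826 carried exactly 1 gene symbol in the platform annotation, 436 several and 9780 none listed. Symbols were updated through RefSeq on GRCr8 for 20758. Values were analysed as log2(signal + 5.11), 5.11 being the 10th percentile of all values, with limma 3.58.1 in R 4.3.3 with data.table at version 1.17.8: 49 tubule samples, 10 stage means, variance trend, two-sided tests, Benjamini-Hochberg adjustment over 22258 probe sets with a signal above 43.7 in at least 3 samples. Fold changes are on this scale and understate those of dim genes. The fitting code was tested on simulated data. The members and gene lists were chosen with earlier results of these data known. A gene in a list is represented by its brightest probe set. Genes were named by rule: the 14 largest called rises and falls, each called list member, and 16 further fixed genes (Ccnb1, Ccna1, Cdk1, Plk1, Aurka, Aurkc, Sycp3, Hspa2, Tnp1, Tnp2, Prm1, Prm2, Ctsl, Prnd, Cst12 and Gfra1); further list members are examples seen with their values. The number of arrays, 5 per stage, limits the precision. Alternatives changed the pseudocount, filter, samples, normalization, variance trend, replicate block and replicates.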

Additional observations from a re-analysis of the deposited data

Results flagged for a closer look

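In 10 of 106 groups of 5 samples, 1 for each named probe set and stage, the outermost sample lay apart from the rest by more than 0.71 of the group's range; chance gives about 1 in 20. No cause was tested.

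At stages XIII-XIV, replicate 1 was low for Foxm1 (286, against 410.4 to 441 in the other samples) and for the crossover gene Mlh3 (8.91, against 36.7 to 53.3), and high for the tektin Tekt4 (1028, against 851 to 882) and for cathepsin L, Ctsl (78.3, against 67.3 to 70.2). Replicate 3 was high for St8sia2 (18.4, against 2.81 to 4.81) and for Mdn1 (97.5, against 5.93 to 7.54). Without that sample the Mdn1 difference was -2.46, and without replicate 1 the Mlh3 difference was -0.65 and no longer called.

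At stage XII, replicate 1 was low for Fhdc1 (189, against 281 to 313) and for Kif22 (78.0, against 106 to 117). Replicate 2 was low for St8sia2 (25.6, against 50.3 to 54.5), and replicate 4 was high for Gfra1 (548, against 242 to 289.6). Without replicate 4 the Gfra1 difference was still called.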

How the results depend on the processing

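The comparison was run under 21 alternatives, of which 10 left out 1 sample each. The number of called probe sets was 208 and lay between 154 and 228 under all of them but one. With the pseudocount at the median of the table it was 60, with 19 higher and 41 lower at XIII-XIV, and all 60 were among the 208; that pseudocount shrinks every difference of a dim probe set by construction. Leaving out 1 sample gave 177 to 224 called, with 72 to 89 higher and 105 to 146 lower, and 1278 to 1543 at an adjusted p under 0.05 alone, against 1657. Of 42 named called probe sets, 22 were called under every alternative run, among them Ccnb1, Ccna1, Plk1, Ube2c, Kif22, Zpbp2, Rdh10, Prss37, Hils1, Cdyl and Gfra1. Another 20 lost the call under at least 1, of which 9 did on leaving out a single sample, and 0 changed sign. Under quantile normalization between arrays Tnp1, Tnp2 and Prm2, which were not called, took the values -0.01849, -0.1922 and -0.07322.

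The 2 added alternatives were chosen after seeing the data: without XIII-XIV replicates 2 and 5 together there were 214 calls, and with only probe sets whose mean signal exceeded the table median at either stage there were 177. The stages share replicate numbers. Same-numbered samples deviated together at r of -0.01 to 0.23, against -0.16 to 0.07 for samples of other numbers. Of 5 XIII-XIV samples, 3 correlated best with their own number. The numbers were not taken as pairs because the labels do not say whether equal numbers share rats or days. A shared source was not tested. With the replicate number as a block 221 were called, 207 of them among the 208. With that block 1924 passed an adjusted p under 0.05 alone by limma, against 1657 without it. With the block and only the 10 samples 199 were called. Dim probe sets limit the rest: signal above background was not shown where both stage means were under the table median.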

Other observations

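Genes of DNA repair outside the lists, picked here after their values were seen, went both ways. Rhno1, a partner of the checkpoint clamp, had 373, 362, 361, 373 and 404 at XIII-XIV and 122, 225, 167, 125 and 149 at XII, a called difference of 1.26 (adjusted p = 1.44e-08). Alkbh2, which reverses DNA alkylation, had 267, 288, 306, 251 and 264 at XIII-XIV and 64.2, 132, 162, 136 and 194 at XII, also called (1.05, adjusted p = 0.000278). Neither overlapped between stages. Slx4, the scaffold of structure-specific nucleases, averaged 339 ± 111 at XIII-XIV and 169 ± 118 at XII (SD, n = 5 each), a called difference of 1.28 (adjusted p = 0.0191) with overlapping samples. Mus81, a nuclease that binds Slx4, averaged 54.5 ± 14.98 at XIII-XIV and 112 ± 19.6 at XII and was called lower, at the limit of the 2-fold rule (adjusted p = 0.00427).

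Other genes picked after their values were seen include falls of spermatid head and tail genes. Spag4, a spermatid protein of the SUN family, had 476, 605, 588, 694 and 652 at XIII-XIV and 1483, 1491, 1650.4, 1966 and 1851 at XII (-1.48, adjusted p = 4.05e-10). Klc3, a kinesin light chain of the sperm tail, averaged 254 ± 24.9 at XIII-XIV and 606 ± 116 at XII (-1.22, adjusted p = 1.47e-08). Dpy30, a core subunit of histone H3 methyltransferase complexes, averaged 229 ± 23.1 at XIII-XIV and 692 ± 146 at XII (-1.55, adjusted p = 8.26e-10). For each of these genes every XIII-XIV sample lay below every XII sample. Among called genes with their highest isolated mean in Sertoli cells, Ctsk, cathepsin K, averaged 126 ± 21.4 at XIII-XIV and 54.0 ± 17.8 at XII (1.20, adjusted p = 0.000322). Gas6, a ligand of the receptors that drive Sertoli cell phagocytosis in mouse, averaged 136 ± 20.3 at XIII-XIV and 58.9 ± 22.0 at XII (1.20, adjusted p = 1.24e-05). Mif, a cytokine, averaged 272 ± 54.8 at XIII-XIV and 605 ± 135 at XII (-1.14, adjusted p = 1.87e-06).

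Samples of 1 stage differed in the same way over several genes, and for some of them the same replicate numbers were high at both stages. Replicates 4 and 5 of XIII-XIV were the highest of their stage for Hils1 (1131 and 1393, against 326 to 431 in the others), Rdh10 (238 and 251, against 131 to 149) and Adam6 (278 and 325, against 122 to 171). Replicates 4 and 5 of XII were the highest of XII for the same genes: Hils1 (3304 and 3589, against 1764 to 2258), Rdh10 (1074 and 971, against 645 to 835) and Adam6 (946 and 808, against 521 to 689). Whether these numbers mark shared rats or days is not given in the labels. Replicates 2 and 3 of XII were the highest of their stage for Ccna1 (559.8 and 577, against 332 to 452), Plk1 (282 and 300.4, against 165 to 216) and Foxm1 (233 and 231, against 110.2 to 143). They were the lowest of XII for Rdh10 (695 and 645, against 835 to 1074) and Hils1 (1798 and 1764, against 2258 to 3589).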
